A study of Mus musculus with 4 samples.

Results

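Fatty acid and triglyceride synthesis is described here through 43 genes, chosen by symbol from the known pathway and not by their values in these libraries. Earlier results of these data were known when the list was made. All 43 were found among the 23238 gene symbols of the count files, and 37 of them had enough counts to be tested. RNA sequencing measured transcript levels in 4 mammary tumour samples of female FVB mice aged 14 weeks, all of which carry PyMT, the polyoma virus middle T oncogene that drives mammary carcinoma. The 2 groups are Nr1d1+/+;PyMT (2 samples) and Nr1d1-/-;PyMT (2 samples). REV-ERBα, the product of Nr1d1, is a repressor in the circadian clock with known targets in lipid metabolism. The labels name neither the promoter that drives PyMT, nor the exons that the null allele lacks, nor whether each sample is a separate animal, so p-values here reflect just the spread among these samples, and that spread may be technical. In bulk tissue, fewer cells of a type and less RNA per cell cannot be told apart.

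Cells build fatty acids in the cytosol from acetyl-CoA, which is carboxylated to malonyl-CoA and then joined into saturated chains by fatty acid synthase. Elongases lengthen the chains, desaturases place double bonds in them, and acyl-CoA synthetases activate them by joining them to coenzyme A. Activated chains are then attached to glycerol 3-phosphate step by step to give phosphatidic acid, diacylglycerol and triglyceride, which is stored in lipid droplets coated by perilipins. The lactating mammary gland runs this pathway at a high rate to make milk fat, and many carcinomas also use it. The transcription factors SREBP-1c (gene Srebf1) and ChREBP (gene Mlxipl) are known to raise many of these genes.

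Levels are TMM-scaled CPM (counts divided by the scaled library size), and values given as a set of 4 stand in the order Nr1d1+/+ replicate 1, Nr1d1+/+ replicate 2, Nr1d1-/- replicate 1, Nr1d1-/- replicate 2. Log2 folds set the Nr1d1-/- libraries over the Nr1d1+/+ libraries and come, with their standard errors (SE), from the quasi-likelihood test of edgeR. A gene is called where its p, adjusted by Benjamini-Hochberg over all 14801 tested genes, is under 0.05. Libraries held between 15905404 and 19116279 counts. Nr1d1 itself had 20.1, 10.3, 10.6 and 12.8 CPM and was not called (log2 fold -0.37, edgeR adjusted p = 0.437), so the directions below rest on the sample labels. Across all genes the log2 fold moved with GC content (Spearman 0.299 across genes) and with transcript length (Spearman -0.314), and calls of members and pathway genes that ended when these trends were removed are given with them. Skeletal muscle markers stood apart in Nr1d1-/- replicate 1, where the 10 listed genes summed to 803 CPM against 22.1 to 30.3 CPM in the other libraries. Calls that depend on that library are named below.

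Of the 16 called members 4 are shown: the elongases Elovl5 and Elovl6, which went in opposite directions, the acyl-CoA synthetase Acsl1 and the droplet coat gene Plin2. Sequence just before the transcription start is given for them. Each is the 250 bases before a RefSeq start (build GRCm38.p6), 5′ to 3′ on the gene's own strand. Windows were found for 35 of the 43 members, and none for Scd1 or Scd2. Capitals mark matches, on either strand, to TCACNCCAC (a core of SREBP sites), CACGTG (the E-box), CCAAT (the CCAAT box), TAGGTCA (a core of sites bound by ROR and REV-ERB receptors) or TATAAA (the TATA box).
Elovl5, chr9:77917115-77917364, plus strand: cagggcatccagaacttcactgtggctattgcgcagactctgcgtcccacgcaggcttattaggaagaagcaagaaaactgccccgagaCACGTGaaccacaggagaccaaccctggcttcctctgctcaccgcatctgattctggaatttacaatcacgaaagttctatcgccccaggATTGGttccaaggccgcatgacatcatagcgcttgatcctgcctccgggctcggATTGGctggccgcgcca
Elovl6, chr3:129532136-129532385, plus strand: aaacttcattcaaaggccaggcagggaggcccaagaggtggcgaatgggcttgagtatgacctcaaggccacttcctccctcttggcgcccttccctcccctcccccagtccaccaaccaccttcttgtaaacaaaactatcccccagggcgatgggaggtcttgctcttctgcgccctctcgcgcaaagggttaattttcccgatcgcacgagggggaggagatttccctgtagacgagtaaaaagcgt
Acsl1, second of 2 starts, chr8:46490716-46490965, plus strand: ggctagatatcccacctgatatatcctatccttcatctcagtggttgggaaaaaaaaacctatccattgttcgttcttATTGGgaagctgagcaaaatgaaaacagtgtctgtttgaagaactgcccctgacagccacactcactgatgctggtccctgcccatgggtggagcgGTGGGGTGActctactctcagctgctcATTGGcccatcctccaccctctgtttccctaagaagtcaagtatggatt
Plin2, chr4:86670060-86670309, minus strand: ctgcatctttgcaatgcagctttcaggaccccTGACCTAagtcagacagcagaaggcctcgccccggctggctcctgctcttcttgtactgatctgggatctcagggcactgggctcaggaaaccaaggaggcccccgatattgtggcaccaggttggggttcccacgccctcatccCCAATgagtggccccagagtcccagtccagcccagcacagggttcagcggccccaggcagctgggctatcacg
The Elovl5 window held an E-box that begins 161 bases before the start and 2 CCAAT boxes on the minus strand, and the Elovl6 window held none of the letters searched. The window before the second Acsl1 start held GTGGGGTGA, the SREBP letters read on the opposite strand, 76 bases before the start. The window before the first Acsl1 start, which is not shown, held none of the letters searched. The Plin2 window, the only member window with the ROR and REV-ERB letters, held them on the opposite strand, 218 bases before the start. Over the members' 50 windows, CCAAT was in 48% against 33.8% of all 32851 promoter windows. CACGTG was in 6% against 6.02%, TCACNCCAC in 4% against 1.05%, TAGGTCA in 2% against 2.23% and TATAAA in 2% against 12.4%. These matches describe letters in a short window and show no binding.

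Of the 37 tested members, 16 were called (43.2%, against 33.9% of all tested genes). In Nr1d1-/- libraries 7 members were higher (18.9%, against 16.5%) and 9 were lower (24.3%, against 17.3%). Whether the members were called more often than other genes was not tested. The median log2 fold was -0.11 over the tested members and -0.01 over all tested genes. Levels did not overlap between the genotypes for 27 of the 37 members (73%, against 70.5% of all tested genes): 13 lay higher in the Nr1d1-/- libraries (35.1%, against 34.4%) and 14 lower (37.8%, against 36.2%). These shares were near the background. The largest fall was in Scd1, the largest rise in Elovl6, and each step of the pathway but de novo synthesis, activation and the transcription factors held members called in both directions.

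**Figure D1:**
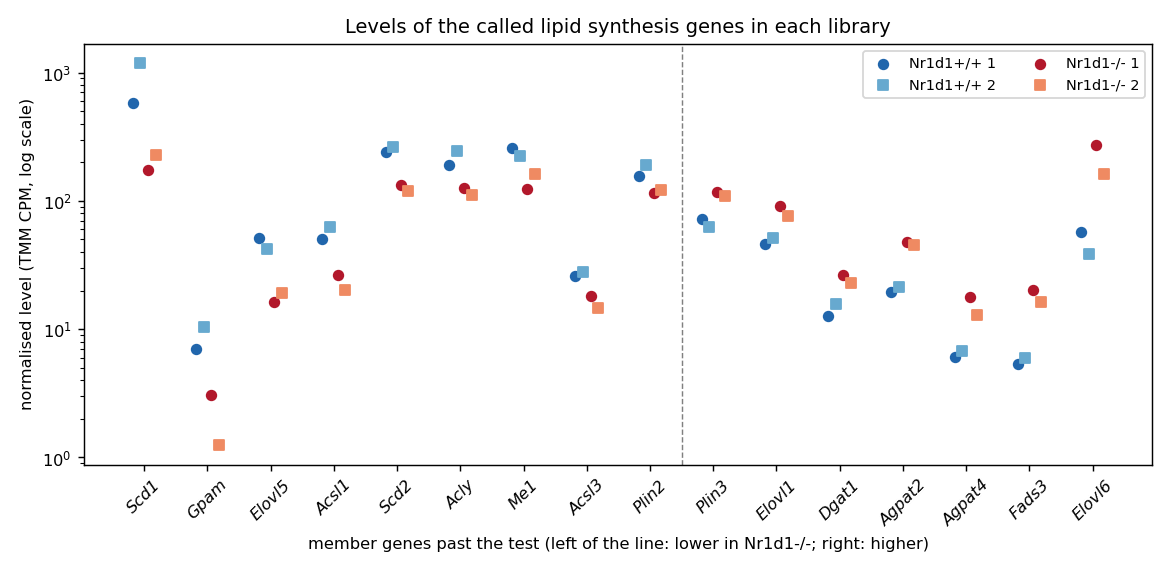
Level of each of the 16 called members (x axis) in each of the 4 libraries (points), as TMM-normalised CPM on a log axis. The 9 genes left of the line were lower in both Nr1d1-/- libraries than in both Nr1d1+/+ libraries and the 7 right of it were higher, from Scd1 (log2 fold -2.14) to Elovl6 (2.18).

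Of the 6 genes of de novo synthesis 2 fell, 4 did not pass and none was called higher, with a median log2 fold of -0.56. Acly, the ATP citrate lyase that makes cytosolic acetyl-CoA from citrate, was at 189, 246, 127 and 111 CPM. Both Nr1d1-/- libraries were below both Nr1d1+/+ libraries, and Acly fell by 0.87 on the log2 scale (SE 0.19, edgeR adjusted p = 0.0106). Me1, the malic enzyme that supplies NADPH for chain building, was at 257, 226, 124 and 162 CPM. It fell by 0.76 (SE 0.19, edgeR adjusted p = 0.018), again with no overlap. Acly lies on chromosome 11 from 100476353 to 100528000 and Me1 on chromosome 9 from 86581371 to 86695953, both on the minus strand (GRCm38).

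The enzymes that commit carbon to fatty acids did not pass. Fasn, the fatty acid synthase, was at 132, 138, 152 and 113 CPM, so the Nr1d1+/+ values lay between those of the Nr1d1-/- libraries (log2 fold -0.03, SE 0.20, edgeR adjusted p = 0.927; 0.03 with upper-quartile scaling). Acaca, the main acetyl-CoA carboxylase, was at 61.1, 68.4, 56.6 and 35.2 CPM (log2 fold -0.50, SE 0.25, edgeR adjusted p = 0.147). Without Nr1d1-/- replicate 1 its log2 fold was -0.88 and passed (edgeR adjusted p = 0.021), as with library size as the only scaling (-0.89, 0.0176). Acacb, the carboxylase isoform tied to the control of fat oxidation, was at 10.1, 27.2, 11.4 and 12.8 CPM, and Nr1d1+/+ replicate 2 alone was high. It was called lower without Nr1d1+/+ replicate 1 (log2 fold -1.20, edgeR adjusted p = 0.022) and had 0.25 without Nr1d1+/+ replicate 2 (edgeR adjusted p = 0.718).

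Thrsp, which encodes Spot 14, a small protein known to rise with lipogenesis in liver, fat and mammary gland, was at 267, 421, 621 and 289 CPM. Only Nr1d1-/- replicate 1 was above both Nr1d1+/+ libraries, and the gene did not pass the test (log2 fold 0.40, SE 0.35, edgeR adjusted p = 0.397). It was -0.26 without Nr1d1-/- replicate 1 and 0.85 (edgeR adjusted p = 0.0378) without Nr1d1-/- replicate 2. Per kilobase of its longest transcript Thrsp had the highest level of the set, 57.4% to 83.3% of the summed level of the 6 genes. The Acly call ended without Nr1d1+/+ replicate 2 (edgeR adjusted p = 0.0585). The Me1 call ended without Nr1d1+/+ replicate 1 (0.0545), without Nr1d1-/- replicate 1 (0.0796) and with GC and length trends removed (log2 fold -0.49, 0.0878), each an edgeR adjusted p. Of the windows of 50 bases in the longest transcript, 52.6% for Acaca and 26.5% for Me1 also occur in pseudogenes (Gm5182 for Acaca, Gm7049 and Gm7329 for Me1), so the counts of both genes are uncertain.

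Among 5 desaturation genes, Scd1 and Scd2 fell, Fads3 rose and the other 2 did not pass, with a median log2 fold of -0.63. Scd1, the stearoyl-CoA desaturase that makes oleate and palmitoleate from saturated chains, was at 579, 1184, 173 and 228 CPM. The Nr1d1+/+ libraries differed widely from each other, and both Nr1d1-/- libraries lay well below them. The mean went from 882 ± 428 to 200.1 ± 38.7 CPM (SD, n = 2). Scd1 fell by 2.14 on the log2 scale (SE 0.32, edgeR adjusted p = 0.00298). Without Nr1d1+/+ replicate 2, the library with the highest level, the log2 fold was -1.55 (edgeR adjusted p = 0.00133).

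Scd2, the isoform of brain and other tissues outside the liver, was at 241, 262, 133 and 119 CPM. Replicates of Scd2 lay close together, and it fell by 0.99 on the log2 scale (SE 0.17, edgeR adjusted p = 0.00436). Scd1 and Scd2 are neighbours on chromosome 19, from 44394455 to 44407879 and from 44293674 to 44306864 (GRCm38). They share few windows of 50 bases: 4.66% of the windows of Scd1 and 4.01% of those of Scd2 occur in other genes, mostly each other and Scd3 or Scd4. Per kilobase, Scd1 was 2.71 and 5.11 times the level of Scd2 in the Nr1d1+/+ libraries and 1.46 and 2.15 times in the Nr1d1-/- libraries. This ratio is taken within a library and does not depend on scaling, though GC and length trends can still move it.

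Of the 3 Fads genes, Fads1 and Fads2 did not pass, with levels lower and not overlapping, and Fads3 rose. Fads1, a desaturase of polyunsaturated fatty acids, was at 133, 73.1, 65 and 67.7 CPM, and only Nr1d1+/+ replicate 1 was far from the rest (log2 fold -0.64, SE 0.27, edgeR adjusted p = 0.0989). It passed without Nr1d1+/+ replicate 2 (log2 fold -1.02, edgeR adjusted p = 0.0124) and with library size only (0.0122). Fads2, which acts before it in that route, was at 49.5, 45.2, 37.1 and 39.4 CPM and did not pass (log2 fold -0.31, SE 0.19, edgeR adjusted p = 0.243), though it did with library size only (-0.68, 0.0234). Fads3, a family member best known for acting on sphingoid bases, was at 5.34, 5.98, 20.1 and 16.3 CPM. Every Nr1d1-/- value of Fads3 was above both Nr1d1+/+ values, and it rose (log2 fold 1.68, SE 0.29, edgeR adjusted p = 0.00416). All 3 Fads genes lie side by side on chromosome 19 between 10041569 and 10196877 (GRCm38). Per kilobase, Fads3 was 0.66% and 0.491% of the summed desaturase level in the Nr1d1+/+ libraries and 5.66% and 4.2% in the Nr1d1-/- libraries, while Scd1 went from 54.5% and 74.2% to 37.2% and 44.6%. Scd1, Scd2 and Fads3 kept their call and direction in all 17 alternative fits.

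Elongation genes went both ways, with Elovl6 and Elovl1 higher, Elovl5 lower and Elovl7 not passing among the 4 tested. Elovl6, which lengthens palmitate to stearate, was at 57.5, 38.9, 273 and 162 CPM. All Nr1d1-/- values were above all Nr1d1+/+ values, and the mean went from 48.2 ± 13.2 to 217 ± 79 CPM (SD, n = 2). Elovl6 rose by 2.18 on the log2 scale (SE 0.29, edgeR adjusted p = 0.00228), the largest rise among the members. It was 1.75 without Nr1d1-/- replicate 1, the library with muscle transcripts, and 2.65 with GC and length trends removed, and it passed in both. Elovl6 lies on chromosome 3 from 129532355 to 129638495 on the plus strand.

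Elovl5, which lengthens polyunsaturated chains, was at 51, 41.9, 16.2 and 19.2 CPM. It fell by 1.39 on the log2 scale (SE 0.22, edgeR adjusted p = 0.00359), with no overlap. The mean went from 46.4 ± 6.4 to 17.7 ± 2.15 CPM (SD, n = 2). Elovl5 lies on chromosome 9 from 77917364 to 77984519 on the plus strand. Within each library and per kilobase, Elovl6 was 0.527 and 0.433 times the level of Elovl5 in the Nr1d1+/+ libraries and 7.9 and 3.93 times in the Nr1d1-/- libraries. Elovl5 had the higher level in both Nr1d1+/+ libraries and Elovl6 in both Nr1d1-/- libraries.

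Elovl1, which lengthens saturated chains to very long ones, was at 46, 51.5, 90.4 and 75.7 CPM and rose (log2 fold 0.77, SE 0.19, edgeR adjusted p = 0.016). Its call ended without Nr1d1+/+ replicate 1 (edgeR adjusted p = 0.0932), without Nr1d1-/- replicate 1 (0.0552), with library size as the only scaling (0.15) and with GC and length trends removed (log2 fold 0.47, 0.107). Elovl7, at 23.5, 23.1, 28.6 and 25.4 CPM, did not pass (log2 fold 0.21, SE 0.22, edgeR adjusted p = 0.473; -0.17 with library size only). Elovl2, Elovl3 and Elovl4 had too few counts to be tested. Elovl3, an elongase of brown fat, skin glands and liver and a known target of REV-ERBα, had no count in any library, which allows up to 0.142 to 0.22 CPM (3 counts per library). Elovl2 had counts in 1 of 4 libraries, and Elovl4, the elongase of retina and skin, reached at most 0.67 CPM.

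**Figure D2:**
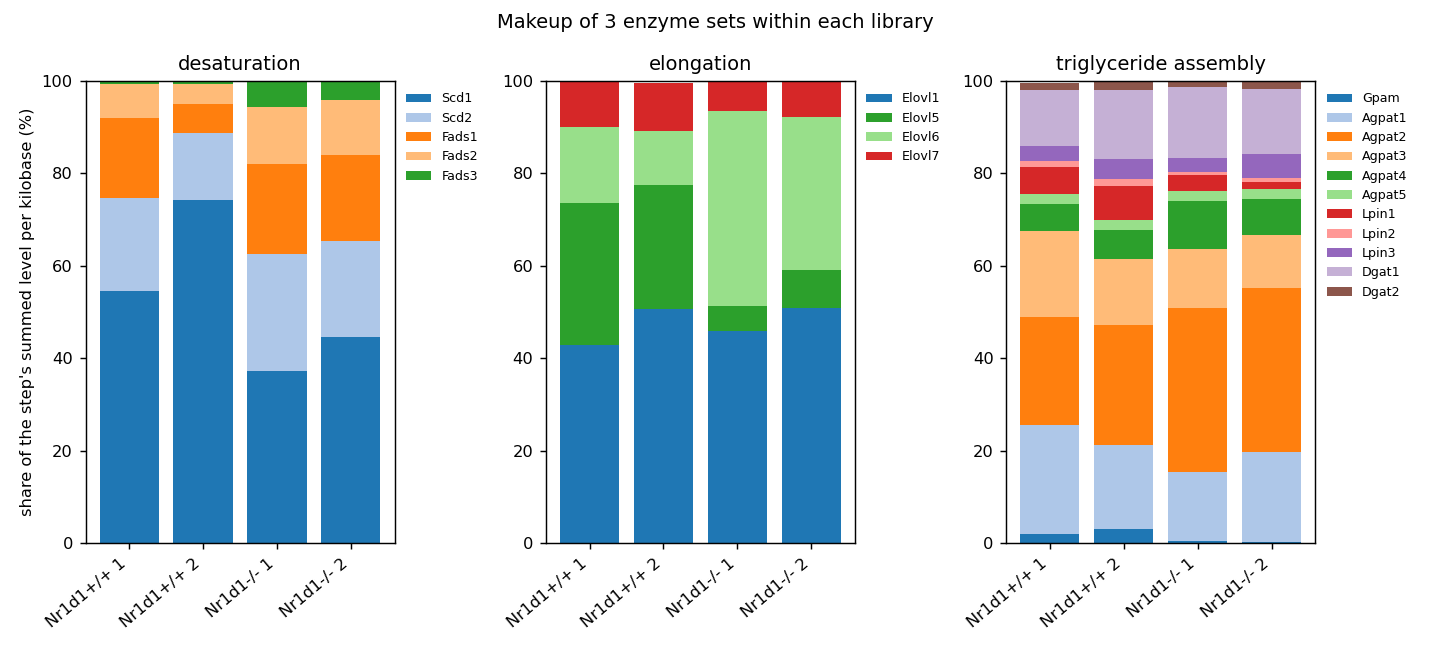
Share of each enzyme set's summed level per kilobase of longest transcript (y axis, %) in each library (bars), with members that never reach 0.5% of their set left out. Elovl6 takes 16.3% and 11.7% of the elongase level in the Nr1d1+/+ libraries and 42.2% and 33% in the Nr1d1-/- libraries, Elovl5 goes from 30.9% and 26.9% to 5.35% and 8.4%, and the share of Elovl1 stays between 42.8% and 50.8%.

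Of 5 tested activation genes, Acsl1 and Acsl3 fell, 3 did not pass and none was called higher by edgeR. Acsl1, the main long-chain acyl-CoA synthetase of fat, liver and muscle, was at 50.2, 62.4, 26.6 and 20.2 CPM. It fell by 1.27 on the log2 scale (SE 0.23, edgeR adjusted p = 0.00499) and by 0.80 once the GC and length trends were taken out (edgeR adjusted p = 0.0284). Both Nr1d1-/- libraries were below both Nr1d1+/+ libraries. Acsl3, a synthetase of nascent lipid droplets, was at 26.2, 27.7, 18.2 and 14.6 CPM (log2 fold -0.72, SE 0.24, edgeR adjusted p = 0.0438). This call was near the threshold: it ended without Nr1d1+/+ replicate 1 (edgeR adjusted p = 0.103), without Nr1d1+/+ replicate 2 (0.177), without Nr1d1-/- replicate 2 (0.136), with upper-quartile scaling (0.0544), with no filter on low counts (0.0511), with the DESeq2 test (0.0506, DESeq2 adjusted p) and with GC and length trends removed (log2 fold -0.32, 0.336).

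Acsl4, which prefers arachidonate and other polyunsaturated chains, was at 374, 368, 279 and 365 CPM, and only Nr1d1-/- replicate 1 stood off (log2 fold -0.20, SE 0.19, edgeR adjusted p = 0.434; 0.37 with GC and length trends removed; called lower with library size only, -0.58). Acsl5, at 120.2, 103, 96.1 and 111 CPM, overlapped between the genotypes, with the lowest value in Nr1d1-/- replicate 1 and the highest in Nr1d1+/+ replicate 1 (log2 fold -0.11, SE 0.18, edgeR adjusted p = 0.677; 0.20 with these trends removed). Per kilobase, Acsl4 made up 59.9% to 65.6% of the summed level of the set in every library. Acss2, which makes acetyl-CoA from acetate, was at 10.5, 15.6, 10.5 and 10.3 CPM, with only Nr1d1+/+ replicate 2 high (log2 fold -0.32, SE 0.30, edgeR adjusted p = 0.433). Its exons overlap those of Acss2os, Ggt7 and Gss on the opposite strand over 927 of 10163 bases, and the strand setting of the counting is not known here. Acsl5 exons overlap those of Zdhhc6 on the opposite strand over 404 of 4864 bases. For Acsl3 the overlap is with Utp14b on the same strand, over 244 of 4357 bases. Acsl6, the brain synthetase, had counts in 2 of 4 libraries and was not tested.

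Of 11 tested genes of triglyceride assembly, Gpam fell, Agpat2, Agpat4 and Dgat1 rose and 7 did not pass, with a median log2 fold of 0.37. Gpam, the mitochondrial glycerol-3-phosphate acyltransferase that starts the pathway, was at 7.05, 10.4, 3.08 and 1.24 CPM. It fell by 2.05 on the log2 scale (SE 0.48, edgeR adjusted p = 0.0131), from counts of 149 and 218 to 42 and 20. Its call ended without Nr1d1+/+ replicate 2 (log2 fold -1.75, edgeR adjusted p = 0.0682), and without Nr1d1-/- replicate 1 the log2 fold was -2.81 (edgeR adjusted p = 0.00495). Gpat4 (Agpat6 in the files), an endoplasmic reticulum enzyme that catalyses the same step, is no member and was named after its values were seen. It was at 117, 102, 115 and 116 CPM and did not pass (log2 fold 0.08, SE 0.17, edgeR adjusted p = 0.753). Gpat3 (Agpat9 in the files), of the same step and also named after its values were seen, was at 1.04, 1.34, 0.146 and 0.31 CPM. It leaned down as Gpam did, from counts of 22 and 28 to 2 and 5, and did not pass (log2 fold -2.31, SE 0.84, edgeR adjusted p = 0.0582).

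The acylglycerol-phosphate acyltransferases add the next chain and give phosphatidic acid. Agpat2, the isoform whose loss causes lipodystrophy, was at 19.4, 21.5, 47.7 and 44.9 CPM. It rose with close replicates (log2 fold 1.18, SE 0.20, edgeR adjusted p = 0.00439), in every fit without 1 library as well, but not with GC and length trends removed (log2 fold 0.57, adjusted p = 0.0739). Agpat4 was at 6.05, 6.79, 17.9 and 12.9 CPM and rose (log2 fold 1.26, SE 0.30, edgeR adjusted p = 0.0146). This call ended without Nr1d1+/+ replicate 1 (edgeR adjusted p = 0.0706), Nr1d1+/+ replicate 2 (0.0526) or Nr1d1-/- replicate 1 (0.0559), with library size only (0.0518) and with the trends removed (0.0591). Agpat5 was at 13.5, 12.9, 20.8 and 19.5 CPM and did not pass (log2 fold 0.61, SE 0.24, edgeR adjusted p = 0.0803), though it did with the trends removed (log2 fold 1.07, edgeR adjusted p = 0.0152). Agpat1, at 28.9, 22.2, 29.4 and 36.6 CPM, and Agpat3, at 62.4, 47.4, 69 and 58.9 CPM, had log2 folds of 0.37 and 0.22 (edgeR adjusted p = 0.247 and 0.443). The sign for Agpat1 turned to -0.11 with the trends removed, and that for Agpat3 to -0.16 with library size only.

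Lipins remove the phosphate to give diacylglycerol, and none of the 3 passed. Lpin1 was at 18.1, 22.9, 17.6 and 7.5 CPM (log2 fold -0.72, edgeR adjusted p = 0.171), and it was called lower without Nr1d1-/- replicate 1 (log2 fold -1.45, edgeR adjusted p = 0.0113) and with library size only (-1.11, 0.0394). Lpin2 was between 3 and 4.74 CPM in all libraries (log2 fold -0.30, edgeR adjusted p = 0.593; 0.03 with the trends removed). Lpin3 was at 6.38, 8.28, 9.81 and 15 CPM (log2 fold 0.77, edgeR adjusted p = 0.104), and it was called higher without Nr1d1-/- replicate 1 (log2 fold 1.03, edgeR adjusted p = 0.0483).

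Diacylglycerol acyltransferases add the last chain. Dgat1 was at 12.8, 15.7, 26.2 and 22.8 CPM and rose (log2 fold 0.78, SE 0.24, edgeR adjusted p = 0.0367). Its call ended without Nr1d1+/+ replicate 1 (edgeR adjusted p = 0.226), Nr1d1+/+ replicate 2 (0.0881) or Nr1d1-/- replicate 1 (0.109), with no filter on low counts (0.0579), with library size only (0.248) and with GC and length trends removed (log2 fold 0.34, 0.345). Dgat2, the enzyme that works with newly made fatty acids, was at 1.84, 2.25, 2.49 and 2.67 CPM and did not pass (log2 fold 0.34, SE 0.46, edgeR adjusted p = 0.601; -0.04 with library size only). Mogat1 and Mogat2, which start the monoacylglycerol route, reached at most 0.248 CPM and were not tested. Per kilobase, Agpat2 went from 23.3% and 25.9% of the assembly set in the Nr1d1+/+ libraries to 35.5% and 35.3%, and Gpam from 2.04% and 3.04% to 0.552% and 0.235%.

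Lipid droplet coat genes were called in opposite directions. Plin2, the coat of droplets in most cells and of milk fat globules, was at 157, 190.3, 115 and 122 CPM and fell by 0.55 on the log2 scale (SE 0.18, edgeR adjusted p = 0.0434). Plin3, a coat that moves to droplets from the cytosol, was at 71.9, 62.5, 117 and 108 CPM and rose (log2 fold 0.75, SE 0.18, edgeR adjusted p = 0.0143). Per kilobase, Plin2 stayed the more abundant: Plin3 was 0.238 and 0.17 times its level in the Nr1d1+/+ libraries and 0.527 and 0.46 times in the Nr1d1-/- libraries. The Plin2 call ended without Nr1d1+/+ replicate 2 (edgeR adjusted p = 0.247), Nr1d1-/- replicate 1 (0.119) or Nr1d1-/- replicate 2 (0.0725), with upper-quartile scaling (0.0619) and with no filter on low counts (0.0589). That of Plin3 ended without Nr1d1+/+ replicate 2 (0.1) and with library size only (0.128), and both passed with GC and length trends removed. Plin4 was at 1.04, 2.44, 3.66 and 1.43 CPM and Plin5 at 2.84, 1.34, 3 and 3.04 CPM, and neither passed (edgeR adjusted p = 0.557 and 0.444). Plin4 and Plin5 are coats of fat and of muscle or heart, and Plin4 was highest in Nr1d1-/- replicate 1.

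Neither transcription factor passed. Srebf1 was abundant, at 859, 623, 552 and 625 CPM, with Nr1d1+/+ replicate 2 and Nr1d1-/- replicate 2 nearly level (log2 fold -0.33, SE 0.21, edgeR adjusted p = 0.245). With library size as the only scaling it was called lower (log2 fold -0.70, edgeR adjusted p = 0.0162). Mlxipl was at 3.36, 2.35, 2.56 and 2.73 CPM (log2 fold -0.11, SE 0.45, edgeR adjusted p = 0.876; 0.14 without Nr1d1+/+ replicate 1). Srebf1 transcripts do not report the cleaved, active protein. Per kilobase, its mean level in the Nr1d1+/+ libraries (172) came after those of Thrsp (246) and Scd1 (182), and in the Nr1d1-/- libraries (137) after that of Thrsp (325) alone, in CPM per kilobase.

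**Figure D3:**
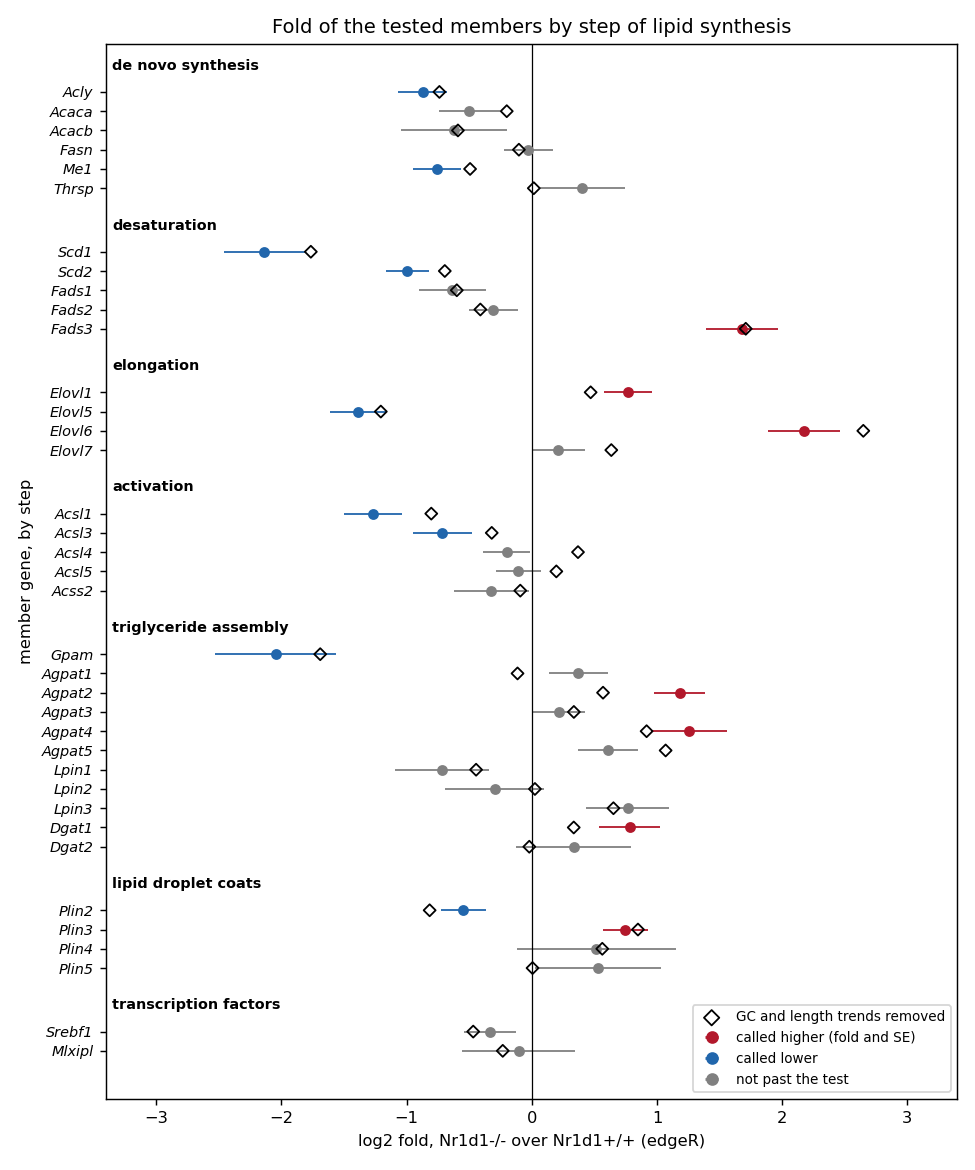
Log2 fold (x axis, Nr1d1-/- over Nr1d1+/+) of the 37 tested members by step, as points with SE bars, coloured where called, with open diamonds for the fold after removal of GC and length trends. Scd1, Gpam, Elovl5 and Acsl1 lie at -2.14, -2.05, -1.39 and -1.27, and Elovl6, Fads3, Agpat4 and Agpat2 at 2.18, 1.68, 1.26 and 1.18.

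Other genes of the pathway were read from lists fixed by function. Of 73 tested genes in 6 such lists, 7 were called higher, 10 lower and 56 did not pass, so that 23.3% were called against 33.9% of all tested genes. With GC and length trends removed, 4 of the 7 higher and 8 of the 10 lower calls were kept. Pgls, Acss1, Mbtps1, Mxd1, Xbp1, Prkaa2, Mgll and Lipa kept their calls in all 17 alternative fits. Among 12 suppliers of acetyl-CoA and NADPH, 3 rose and none fell by edgeR. They were Pgls of the pentose phosphate route (54.4, 41.6, 132 and 113 CPM, log2 fold 1.35, edgeR adjusted p = 0.00298), the pyruvate carboxylase Pcx (18.1, 23.8, 42.7 and 40.3 CPM, log2 fold 0.99, edgeR adjusted p = 0.0116) and the citrate carrier Slc25a1 (52.2, 52.3, 76.3 and 87.9 CPM, log2 fold 0.65, edgeR adjusted p = 0.0252). The Slc25a1 call ended with the trends removed (log2 fold 0.04, edgeR adjusted p = 0.901), with library size only (0.286) and when either Nr1d1+/+ library was left out (replicate 1, 0.113, or replicate 2, 0.117) or Nr1d1-/- replicate 2 was (0.0766). That of Pcx ended with library size only (0.0735) and without Nr1d1+/+ replicate 1 (0.0815). None of the 11 other elongation and desaturation genes passed by edgeR, a set that holds the reductases and dehydratases that finish each elongation round.

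Among 10 tested genes of other acyl-CoA synthetases and fatty acid uptake, Acss1, the mitochondrial acetate enzyme, fell (143, 144, 77.7 and 68.2 CPM, log2 fold -0.98, edgeR adjusted p = 0.00489). Slc27a4, a fatty acid transport protein, rose (50.6, 58.9, 80.7 and 87.4 CPM, log2 fold 0.62, edgeR adjusted p = 0.0315), a call that ended with the trends removed (0.0645), with library size only (0.37), with no filter on low counts (0.0594) and when either Nr1d1+/+ library was left out (replicate 1, 0.206, or replicate 2, 0.0787) or Nr1d1-/- replicate 2 was (0.0768). Of 12 tested genes of other glycerolipid steps, the ether lipid enzyme Agps fell (36.9, 34.7, 18.5 and 16.1 CPM, log2 fold -1.05, edgeR adjusted p = 0.00841), but did not pass with the trends removed (log2 fold -0.50, edgeR adjusted p = 0.125). The seipin gene Bscl2, which shapes nascent lipid droplets, rose (57, 55.8, 99.1 and 94 CPM, log2 fold 0.78, edgeR adjusted p = 0.0112), but did not pass with library size only (0.11) or without Nr1d1+/+ replicate 2 (0.063).

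Of 21 regulators of lipogenic genes, 7 were called lower and 1 higher, with a median log2 fold of -0.41. Of all tested genes 17.3% were called lower and 16.5% higher, and whether the regulators differ from that was not tested. Xbp1, a factor of the unfolded protein response that also drives lipogenic genes in liver, fell from 1345 and 1376 CPM to 522 and 513 CPM (log2 fold -1.39, edgeR adjusted p = 0.00224). Mbtps1, the site-1 protease that cleaves SREBP precursors, fell from 82.7 and 89.6 to 37.4 and 35.9 CPM (log2 fold -1.23, edgeR adjusted p = 0.0029). Prkaa2, a catalytic subunit of the kinase AMPK that inhibits acetyl-CoA carboxylase, fell from 15.7 and 17.1 to 5.49 and 5.58 CPM (log2 fold -1.56, edgeR adjusted p = 0.00522). Prkaa1, also of AMPK and named for its lost call, fell from 22.3 and 21.4 to 10.1 and 15 CPM (log2 fold -0.80, edgeR adjusted p = 0.0499). Its call ended with GC and length trends removed (log2 fold -0.28, edgeR adjusted p = 0.46) and was kept in 8 of 17 alternative fits. Mxd1, a MAX-binding repressor of the network to which MLX belongs, fell from 11.4 and 9.67 to 2.93 and 3.78 CPM (log2 fold -1.64, edgeR adjusted p = 0.00912). Mlx itself, named after its values were seen, fell from 61.5 and 55.65 to 32.4 and 35.3 CPM (log2 fold -0.79, edgeR adjusted p = 0.0149). Its call was kept in 16 of 17 alternative fits. The gene called higher was Nr1h2, which encodes LXRβ and is named for its direction after its values were seen (86.2, 84.9, 139 and 127 CPM, log2 fold 0.64, edgeR adjusted p = 0.0212). Its call ended with the trends removed (log2 fold 0.03, edgeR adjusted p = 0.905), with library size only (0.263) and when either Nr1d1+/+ library was left out (replicate 1, 0.0905, or replicate 2, 0.106) or Nr1d1-/- replicate 1 was (0.065). Among 7 lipolysis genes, the monoacylglycerol lipase Mgll rose (17.5, 20, 41.8 and 47 CPM, log2 fold 1.24, edgeR adjusted p = 0.00415). The lysosomal lipase Lipa fell (158, 109.8, 50.8 and 48.3 CPM, log2 fold -1.43, edgeR adjusted p = 0.00298).

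Markers of cells that also make fat differed between the libraries. Over all tested genes 16.5% were called higher and 17.3% lower, and no marker list was tested against these shares. Of 12 adipocyte markers, 10 were tested and 6 were called higher, with summed levels of 300 and 203 CPM in the Nr1d1+/+ libraries and 1582 and 878 CPM in the Nr1d1-/- libraries. Most of that sum was Lpl, lipoprotein lipase, at 239, 131, 1302 and 689 CPM, which cells other than adipocytes can also express. Aqp7, a glycerol channel, was at 29.2, 13.6, 109.6 and 74.1 CPM (log2 fold 2.10, edgeR adjusted p = 0.00393). Fabp4, a fatty acid carrier, was at 24.2, 39.5, 100.2 and 83.1 CPM (log2 fold 1.52, edgeR adjusted p = 0.00401). Cfd, which encodes adipsin, was at 2.74, 9.38, 42.5 and 20.8 CPM (log2 fold 2.38, edgeR adjusted p = 0.0104), so all of these were higher in both Nr1d1-/- libraries. Retn was the sixth called higher, and Adipoq, the adiponectin gene, the fifth, at 0.0473, 1.96, 10.7 and 4.09 CPM (log2 fold 2.86, edgeR adjusted p = 0.0296). Plin1, the droplet coat of fat cells, did not pass at 0.142, 0.861, 2.34 and 0.372 CPM, and the leptin gene Lep was at 0 in both Nr1d1-/- libraries. Adipoq, Plin1 and Lep are named as defining markers, after their values were seen. Of the 5 brown fat markers 2 of 4 tested were called higher, with sums of 11.9, 10.3, 53.8 and 23.1 CPM. They were Zic1 (6.81, 5.41, 33 and 12.6 CPM, log2 fold 1.89, edgeR adjusted p = 0.0127) and Cox8b (0.378, 1.29, 11.9 and 2.17 CPM, log2 fold 3.03, edgeR adjusted p = 0.0265). Ucp1, the uncoupling protein gene that defines brown fat, had 0.0473, 0.0479, 1.68 and 0 CPM and was not tested. Of the calls among these fat markers, those of Adipoq (edgeR adjusted p = 0.107), Retn (0.0907), Cox8b (0.169) and Zic1 (0.0546) ended without Nr1d1-/- replicate 1, those of Adipoq (0.0619), Retn (0.18) and Cox8b (0.0643) without Nr1d1+/+ replicate 1, and that of Retn without Nr1d1+/+ replicate 2 (0.127). With GC and length trends removed the calls of Cfd (edgeR adjusted p = 0.0626), Adipoq (0.0538), Retn (0.0826) and Cox8b (0.0951) ended. That of Adipoq also ended with the DESeq2 test (0.244, DESeq2 adjusted p). Lpl, Aqp7 and Fabp4 kept their calls in all 17 alternative fits.

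Thrsp and Elovl6 were both highest in the library with the highest adipocyte sum. Like Elovl6, the rest of the members called higher, Fads3, Elovl1, Agpat2, Agpat4, Dgat1 and Plin3, were highest there too. A member higher in both Nr1d1-/- libraries must peak in replicate 1 or replicate 2, so this order alone cannot show a link to adipocytes. How many of all genes called higher peaked in that library was not counted. The same library had the highest skeletal muscle sum. The part of adipocytes in these values was not tested. Without that library the log2 fold was 1.75 for Elovl6 and -0.26 for Thrsp. The adipocyte sum of the Nr1d1-/- library that remains in that fit was still 878 CPM, against 300 and 203 CPM in the Nr1d1+/+ libraries. Of 10 secretory mammary markers 3 were called lower and none higher by edgeR, beside 17.3% and 16.5% of all tested genes. Those lower were the whey protein gene Wap and 2 genes of milk fat globule secretion. The other 7 did not pass, and the median log2 fold of the list was -0.07, so the list had no common direction. Lalba, named after its values were seen, lay higher at 592, 724, 791 and 1806 CPM (log2 fold 0.98, edgeR adjusted p = 0.0541). Xdh, which encodes xanthine oxidoreductase of the globule membrane, was at 168, 183, 53.9 and 51.3 CPM (log2 fold -1.74, edgeR adjusted p = 0.00132), and Btn1a1, the butyrophilin that binds it, at 73.7, 98, 38.7 and 30.1 CPM (log2 fold -1.32, edgeR adjusted p = 0.00412). The sum of the secretory list, mostly the casein gene Csn3, was 13730 to 15530 CPM in all libraries. Wap had 260.3, 387, 105 and 88.5 CPM (log2 fold -1.75, edgeR adjusted p = 0.00224). The part of secretory cells in the falls of Scd1, Acly and Plin2 was not tested.

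Epithelial markers summed to 5984 and 5038 CPM in the Nr1d1+/+ libraries and 9721 and 9067 CPM in the Nr1d1-/- libraries. Of these 7 markers 3 were called higher and 1 lower, beside 16.5% and 17.3% of all tested genes. Those higher were the keratin genes Krt8, Krt18 and Krt19, and Cdh1 was lower (358, 305, 188 and 212 CPM). With GC and length trends removed the calls of Krt8 (edgeR adjusted p = 0.136), Krt18 (0.114) and Cdh1 (0.061) ended. The rest, Epcam (log2 fold -0.36), Cldn3 (0.49) and Cldn7 (0.35), are named to complete the list and did not pass. Macrophage markers summed to 291 to 457 CPM (1 of 8 higher, 1 lower), endothelial markers to 43.1 to 91.5 CPM (4 of 7 higher) and skin and sebaceous markers to 277 to 359 CPM, of which none of 6 tested passed by edgeR. Mc5r and Awat1, 2 defining markers of sebaceous glands, were at 0 in all libraries.

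**Figure D4:**
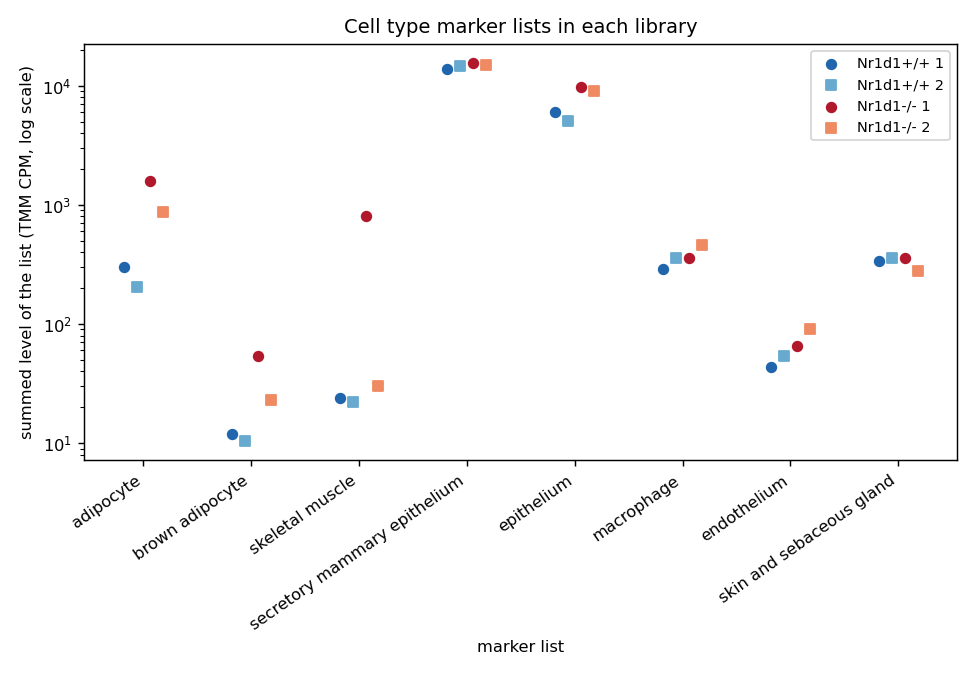
Summed level of each fixed marker list (x axis) in each library (points), in TMM-normalised CPM on a log axis. The skeletal muscle sum is 803 CPM in Nr1d1-/- replicate 1 and at most 30.3 CPM elsewhere, and the adipocyte sum is higher in both Nr1d1-/- libraries (1582 and 878 CPM) than in the Nr1d1+/+ libraries (300 and 203 CPM).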

How the data were processed

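Raw counts per gene symbol were deposited by the authors for 4 libraries. Per the labels' protocols, Trizol was used for RNA and a Clontech SMARTer Stranded kit for the libraries. Reads were aligned with TopHat to mm10, per the submitters' processing notes. Versions, counter, annotation and strand setting: not given in the sources used here. Everything else was computed here. Genes were filtered with filterByExpr (minimum count 10), scaled with TMM (factors 1.11, 1.18, 0.859 and 0.895) and tested with edgeR 4.0.16 in R 4.3.3 (glmQLFit with legacy=FALSE, 1 term, the genotype; 2 residual degrees of freedom). A count of 1 is 0.0473 to 0.0732 CPM. Each SE was taken from the F statistic. Lengths, GC content and places come from GENCODE M21 (GRCm38, the assembly of mm10), which matched 22197 symbols directly and 658 by synonym. Levels per kilobase use the longest transcript.

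The members, lists and tests were chosen with earlier results of these data known. All 43 members may be named, and of other lists up to 4 called genes of lowest p; genes named outside this rule are marked in the text. In data simulated for this comparison of 2 against 2 over 14801 genes, edgeR called 22% of the genes given a 2-fold change. It called 91% of the genes given a 4-fold change and 0.0685% of the rest. Few genes were given a change in that simulation, so these shares need not hold for the real libraries. Alternatives were other scalings and filters, DESeq2 1.42.0, limma-voom (limma 3.58.1), other quasi-likelihood settings, removal of GC and length trends, a replicate block and leaving out each library.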

Additional observations from a re-analysis of the deposited data

How the results depend on the processing

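Over 17 alternative fits the tested members gave 624 values. Of these, 547 kept direction and side of the threshold, 41 lost the call, 14 gained one and 22 changed sign. No called member changed sign. Scd1, Scd2, Fads3, Elovl5, Elovl6 and Acsl1 kept call and direction in every fit. With library size as the only scaling, which moved the median log2 fold of all genes from -0.01 to -0.38, 3 members were called higher and 15 lower (all genes: 1281 and 4410, so that 22.5% of calls were higher in place of 48.8%). With GC and length trends removed, 4 members were higher (3 of the 7 calls kept, and Agpat5 gained) and 7 lower, and of all genes 1768 were higher and 1653 lower. Together with a replicate block, 4 were higher. Without 1 library each, 4 to 8 members were higher and 6 to 9 lower, and of all genes 1212 to 2463 were higher and 1277 to 2548 lower. The lowest values of 1212 and 1277 came without Nr1d1+/+ replicate 2. Counts per step and the calls of other lists under these alternatives were added after the data were seen. With the replicate block alone 7 members were higher and 9 lower, 2622 and 2704 of all genes. The labels give the numbers no shared source, and the deviations of same-numbered libraries correlated at 0.026 across genes.

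Signs turned only for members that were not called, and the cause was not tested. Once GC and length trends were taken out, folds were 0.37 for Acsl4, 0.20 for Acsl5, -0.11 for Agpat1, 0.025 for Lpin2 and -0.02 for Dgat2. With the replicate block added they were 0.36, 0.20, -0.11, 0.007 and -0.022, and -0.045 for Thrsp. With library size only they were -0.17 for Elovl7, -0.16 for Agpat3 and -0.043 for Dgat2. Fasn had 0.03 with upper-quartile scaling and 0.007 over genes of at least 5 CPM. Without 1 library each, Acacb ranged from -1.20 to 0.25 (above 0 without Nr1d1+/+ replicate 2), Thrsp from -0.26 (Nr1d1-/- replicate 1) to 0.85, Plin4 from -0.28 to 1.24 (below 0 without Nr1d1-/- replicate 1 and, at -0.008, without Nr1d1+/+ replicate 1) and Mlxipl from -0.36 to 0.14 (Nr1d1+/+ replicate 1). Fasn was at 0.17 without Nr1d1-/- replicate 2. With 2 libraries a group true changes can be missed, at a rate that was not estimated for these data. In simulated data 22% of genes with a 2-fold change were called. Few genes were given a change there and all shared a single dispersion, while 33.9% of all tested genes were called here, so that share need not carry over.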

Other observations

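Ratios of 2 genes within a library do not depend on the scaling between libraries, but GC and length trends can still move them. The pairs below were chosen after their values were seen, so they carry no test. Per kilobase, Scd1 was 12.4 and 37.5 times the level of Elovl6 in the Nr1d1+/+ libraries and 0.779 and 1.73 times in the Nr1d1-/- libraries. Both enzymes act on saturated chains, Elovl6 by lengthening and Scd1 by desaturating them. Dgat1 was 5.92 and 4.92 times Gpam in the Nr1d1+/+ libraries and 27.9 and 60.2 times in the Nr1d1-/- libraries. Other tested enzymes of the same steps did not pass. For the opening step these were Gpat4 (Agpat6 in the files, log2 fold 0.08, edgeR adjusted p = 0.753) and Gpat3 (Agpat9 in the files, -2.31, 0.0582). For the last step it was Dgat2 (0.34, 0.601). Acly was 3.26 and 4.05 times Fasn and then 1.89 and 2.23 times.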
